A study of Mus musculus with 9 samples.

Results

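The data describe 8 genes whose products help to set how long inflammatory mRNAs last, followed through an LPS pulse in a mouse intestinal epithelial line. They are Zfp36, Zfp36l1, Zfp36l2, Zc3h12a, Hnrnpd, Khsrp, Elavl1 and Rc3h1, picked by name for their known roles. They were picked with earlier results of these data known, so their counts are not independent support for a direction. The 8 genes are among the 18193 that have a probe set of their own on the array. Of its 45101 probe sets, 21 are annotated to exactly 1 of them. Where a gene has several probe sets, the brightest by its mean of 9 arrays stands for it, and the others are given as well. All 8 passed the level minimum, log2 4 on at least 3 of 9 arrays, and so belonged to the 9431 genes tested. Zc3h12a passed it through its 3 arrays at 6 h of LPS alone.

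The cells were m-ICcl2, a line of small intestinal epithelial cells from C57BL/6 mouse fetuses that carries the SV40 large T antigen as a transgene, in all 3 conditions alike. There were 3 biological replicates, each on its own array, in every condition. Cells stayed unstimulated, were given 100 ng/mL of lipopolysaccharide (LPS, an outer-membrane glycolipid of E. coli) for 6 h, or were given the same 6 h exposure and then spent 90 h without LPS. The last condition ended 96 h after LPS was first added and is called tolerant here, as in the series. All arrays come from a single line. The labels give no time in culture for unstimulated cells, so in tolerant cells earlier LPS and longer culture cannot be told apart.

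Many cytokine, chemokine and immediate-early mRNAs carry AU-rich elements or stem-loops in their 3' untranslated regions, and proteins bound there set how fast they are broken down. Tristetraprolin (TTP), the product of Zfp36, and its relatives from Zfp36l1 and Zfp36l2 bind AU-rich elements through a tandem CCCH zinc finger and recruit the CCR4-NOT deadenylase. Regnase-1, from Zc3h12a, is an endonuclease, and Roquin-1, from Rc3h1, binds stem-loops and recruits deadenylases, and both silence overlapping sets of inflammatory mRNAs. AUF1 (Hnrnpd) and KSRP (Khsrp) bind AU-rich elements and mostly favour decay, whereas HuR (Elavl1) binds them and mostly favours stability. Several of these proteins limit their own mRNA, and all are also controlled after translation, which arrays do not measure.

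Promoter sequences are shown for Zfp36 and Zfp36l1, which were raised together in tolerant cells, and for Zc3h12a, which was high at 6 h. They are the 250 bases before the annotated start, 5' to 3' on the gene's strand, from RefSeq on build GRCm38.p6, whose promoter table held 7 of the 8 genes. Capitals mark matches to 5 searched motifs.
Zfp36, chr7:28379229-28379478, minus strand: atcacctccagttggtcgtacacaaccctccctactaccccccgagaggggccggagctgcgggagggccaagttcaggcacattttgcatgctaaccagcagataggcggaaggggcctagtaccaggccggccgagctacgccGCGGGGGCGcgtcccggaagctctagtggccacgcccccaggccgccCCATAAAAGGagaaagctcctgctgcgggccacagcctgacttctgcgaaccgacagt
Zfp36l1, chr12:80113014-80113263, minus strand: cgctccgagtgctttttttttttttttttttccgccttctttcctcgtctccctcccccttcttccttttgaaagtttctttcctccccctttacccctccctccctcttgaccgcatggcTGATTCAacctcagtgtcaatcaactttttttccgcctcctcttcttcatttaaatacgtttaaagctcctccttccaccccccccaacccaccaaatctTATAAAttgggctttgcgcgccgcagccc
Zc3h12a, chr4:125127882-125128131, minus strand: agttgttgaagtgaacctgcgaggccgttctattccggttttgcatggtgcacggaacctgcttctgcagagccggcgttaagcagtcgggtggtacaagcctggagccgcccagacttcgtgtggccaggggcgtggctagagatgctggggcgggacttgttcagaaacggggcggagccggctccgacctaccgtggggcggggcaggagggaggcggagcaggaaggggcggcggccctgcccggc
Matches were searched on both strands and, among these 3 sequences, none overlapped another. The EGR motif GCGGGGGCG lay 105 to 97 bases before the start of Zfp36 and is in 2.57% of 32851 promoter windows of this length, and a CArG box, the serum response factor motif, lay 58 to 49 bases before it and is in 1.47%. Zfp36l1 held the AP-1 motif TGANTCA, as did Rc3h1 (6.75% of windows), and the TATA box TATAAA (12.4%). No member's window held the kappa-B motif, which 7.25% of windows hold. A match describes letters only and is not a measured site.

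Replicate 1 stood apart from replicates 2 and 3 in all 3 conditions, on a principal component with 30.9% of the variance over the tested genes. Beta-actin control probe sets at the 3' end exceeded those at the 5' end by 0.40 to 0.72 log2 for replicate 1 and by 1.02 to 1.38 for replicates 2 and 3. For Gapdh controls the same difference overlapped, at -0.20 to -0.06 for replicate 1 and -0.24 to -0.16 for replicates 2 and 3. Zfp36, Zfp36l2 and Hnrnpd read highest on the replicate 1 array of every condition. Results are therefore also given with a block for replicate number, and without replicate 1. Of 8 epithelial markers, Krt8, Krt18, Vil1, Tjp1 and Cdh17 were above log2 4 on all arrays, Epcam on the tolerant arrays alone, and Krt19 and Cdh1 on none. In tolerant over unstimulated cells 4 of the 6 tested rose, beside 14.0% of all tested genes. They were Cdh17 (4.13-fold), Epcam (at least 3.11-fold), Tjp1 (2.81-fold) and Krt18 (1.58-fold), while Krt8 and Vil1 did not pass. Epcam passed the level minimum through the tolerant arrays alone, which fixed its direction. Without it the rises were those of Cdh17, Tjp1 and Krt18. The summed epithelial list, in which Krt8 and Krt18 were the brightest, was log2 13.7 to 14.2 in unstimulated and 14.1 to 14.5 in tolerant cells. The 10 fibroblast and endothelial markers, and Ptprc, Itgam, Adgre1, Lyz2 and Cd3e among leukocyte markers, lay below log2 4 on all 9 arrays. Both tested leukocyte markers fell in tolerant from unstimulated cells, where 12.2% of all tested genes did. Csf1r fell by 3.85-fold and Spi1 by at least 1.94-fold (limma adjusted p = 0.0232 and 0.0181). The summed leukocyte list is mostly Csf1r, and went from log2 10.2 to 11.2 in unstimulated cells to 8.17 to 9.38 in tolerant cells. Csf1r alone read 10.10 to 11.20 and 7.97 to 9.30. These markers moved in the same comparison as the TTP-family genes, Rc3h1 and Hnrnpd, and their part in the results was not tested. In such bulk RNA a lower level per cell and fewer expressing cells cannot be told apart.

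**Figure D1:**
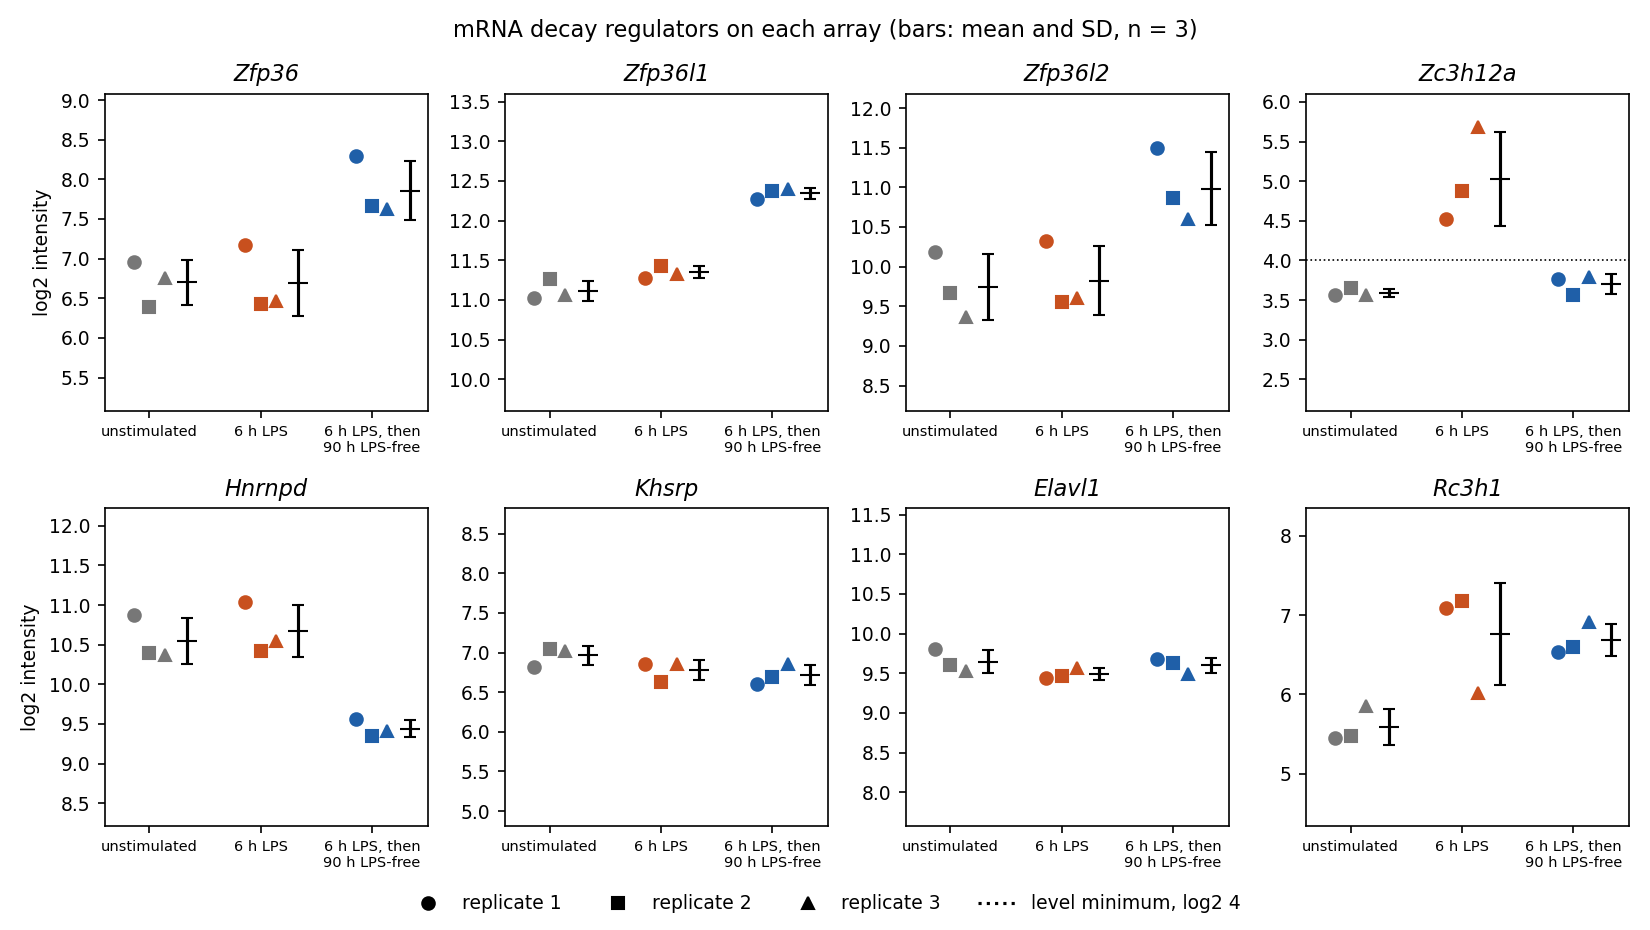
Log2 intensity of the 8 genes (panels) on each of 9 arrays, by condition on the x axis, with a symbol for each replicate number and bars for the mean and SD of 3 arrays. Each panel spans 4 log2 units and the dotted line is the level minimum of log2 4, which is in view for Zc3h12a alone. The tolerant arrays of Zfp36, Zfp36l1 and Zfp36l2 lie above and those of Hnrnpd below all other arrays.

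At 6 h of LPS the question was how the decay regulators had responded. Zc3h12a, the Regnase-1 gene, and Rc3h1, the Roquin-1 gene, had the largest differences among the 8, and both fell short of the adjusted threshold. On limma's test with Benjamini-Hochberg adjustment over 9431 genes, 0 of 8 were called, where 0.0636% of all tested genes were called higher and 0% lower. At an unadjusted p below 0.05, 2 of 8 differed, near the share over all tested genes, 2163 of 9431. With the replicate block both genes were called higher, against a background of 11.6% higher and 12.5% lower. Zc3h12a entered the test through its 6 h arrays alone, which fixed its direction in both counts. Without it, Rc3h1 was the only such gene among the 7 members left.

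Zc3h12a read 3.56, 3.65 and 3.56 on the unstimulated arrays and 4.52, 4.87 and 5.68 at 6 h. It then read 3.76, 3.56 and 3.79 on the tolerant arrays. The 6 h arrays stood above all 6 others, without overlap, and those 6 lay below the level minimum. At 6 h it was at least 2.03-fold higher than in unstimulated cells, taking log2 4 as the level of the latter (measured means 5.02 ± 0.59 and 3.59 ± 0.05, SD, n = 3), with a limma adjusted p of 0.115. That value was 0.0297 with the replicate block, 0.115 from replicates 2 and 3, and 0.0232 without 6 h LPS replicate 3, the array with its highest reading. The other Zc3h12a probe set stayed below log2 4 on all 9 arrays and read at most 3.69.

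Rc3h1 read 5.45, 5.47 and 5.85 on the unstimulated arrays, 7.09, 7.18 and 6.02 at 6 h, and 6.54, 6.60 and 6.91 in tolerant cells. Every later array was above every unstimulated array, and 6 h LPS replicate 3 was the lowest of the later 6. At 6 h the gene was 2.26-fold higher (95% interval 1.40 to 3.63, limma adjusted p = 0.115, or 0.0367 with the replicate block). Within the same-numbered pairs the log2 difference was 1.64 and 1.71 for replicates 1 and 2 but 0.17 for replicate 3. Without 6 h LPS replicate 3 the difference was 1.55 log2 (adjusted p = 0.0179), and from replicates 2 and 3 it was 0.94 (adjusted p = 0.162). Rc3h1 has 1 probe set of its own.

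None of the other 6 genes passed at 6 h. Zfp36l1 was 1.18-fold higher, in all 3 same-numbered pairs, but did not pass (95% interval 0.941 to 1.47, limma adjusted p = 0.355). For Zfp36 the log2 difference was -0.01 with a 95% interval of -0.63 to 0.61 (0.644-fold to 1.53-fold), and for Zfp36l2 0.08 with an interval of -0.64 to 0.80. Hnrnpd (0.12), Khsrp (-0.19) and Elavl1 (-0.16) had intervals that span 0 as well, and the median of all tested genes was -0.11.

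**Figure D2:**
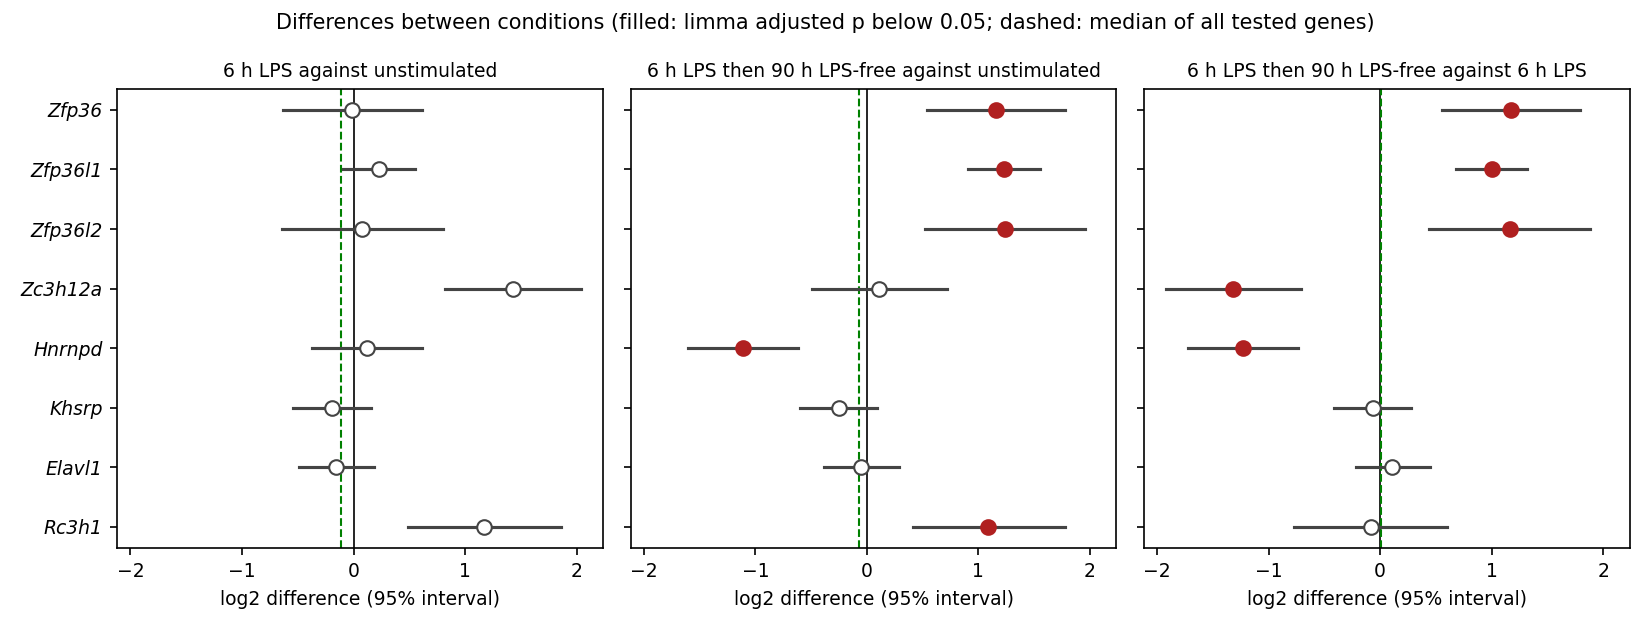
Log2 differences of the 8 genes in the 3 comparisons (panels), with 95% intervals from limma on all 9 arrays. Filled points passed an adjusted p of 0.05, the dashed line is the median of all tested genes, and in the tolerant comparisons the 3 TTP-family genes sit near 1 with intervals above 0.

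Tolerant cells were then compared with unstimulated ones. All 3 genes of the TTP family rose, by 2.23-fold to 2.36-fold, as did Rc3h1 by 2.13-fold, and Hnrnpd fell 2.16-fold. So 4 of 8 were called higher, where 14.0% of all tested genes were, and 1 of 8 lower, where 12.2% were. Zc3h12a, Khsrp and Elavl1 did not pass. The block left these calls as they were (background 22.7% higher and 25.9% lower), and replicates 2 and 3 alone left 3 higher and 1 lower (18.5% and 19.7%), with Rc3h1 lost.

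Zfp36l1 read 11.03, 11.26 and 11.06 on the unstimulated arrays, 11.28, 11.43 and 11.33 at 6 h, and 12.27, 12.37 and 12.40 in tolerant cells. Its 3 conditions were ordered without overlap, tolerant highest, although the step to 6 h did not pass. It rose 2.35-fold over unstimulated cells (95% interval 1.88 to 2.93, limma adjusted p = 0.000641), with adjusted p from 0.000793 to 0.00576 when each array was left out in turn. Its other probe set read 7.55 to 8.13 in unstimulated and 9.21 to 9.59 in tolerant cells, a log2 difference of 1.52 (adjusted p = 0.018 over 16655 probe sets) beside 1.23 on the first.

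Zfp36, the TTP gene, read 6.96, 6.39 and 6.75 on the unstimulated arrays, 7.17, 6.43 and 6.47 at 6 h, and 8.29, 7.66 and 7.62 in tolerant cells. Unstimulated and 6 h arrays overlapped, and the lowest tolerant array was above the highest of both. The rise over unstimulated cells was 2.23-fold (95% interval 1.45 to 3.44, limma adjusted p = 0.0149), and within same-numbered pairs 1.34, 1.26 and 0.87 log2. Without unstimulated replicate 2 the call was lost (adjusted p = 0.063). Zfp36 has a single probe set.

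Zfp36l2 read 10.19, 9.67 and 9.37 on the unstimulated arrays, 10.32, 9.55 and 9.60 at 6 h, and 11.49, 10.86 and 10.60 in tolerant cells. The spread within a condition followed the replicate number, with SDs of 0.42 to 0.46 (n = 3), whereas the same-numbered differences were 1.29, 1.19 and 1.23. Its rise of 2.36-fold over unstimulated cells had an adjusted p of 0.0209 (95% interval 1.43 to 3.88), or 0.000231 with the replicate block. The call was lost without unstimulated replicate 2 (adjusted p = 0.0701) or 3 (0.067), or without tolerant replicate 1 (0.059) or 2 (0.0557). Both other Zfp36l2 probe sets stayed near the floor on all arrays, at 2.55 or less.

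Hnrnpd, the AUF1 gene, read 10.88, 10.39 and 10.37 on the unstimulated arrays, 11.04, 10.42 and 10.55 at 6 h, and 9.56, 9.35 and 9.41 in tolerant cells. The tolerant arrays lay below the other 6 with no overlap. The fall from unstimulated cells was 2.16-fold, from 10.55 ± 0.29 to 9.44 ± 0.11 (SD, n = 3; limma adjusted p = 0.0067), and it was called with each array left out in turn (adjusted p 0.00354 to 0.0326). The second probe set, at 3.56 to 6.27 over the arrays, was lower by 0.57 log2 without passing (adjusted p = 0.334), and the third lay below log2 4 throughout. With the mean of the 3 probe sets in place of the brightest, the Hnrnpd difference was -0.57 and the call was lost (adjusted p = 0.0516).

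Rc3h1, whose array values are given above, rose to 6.68 ± 0.20 from 5.59 ± 0.22 (SD, n = 3; limma adjusted p = 0.0282). The call was lost from replicates 2 and 3 alone (adjusted p = 0.0636) and without unstimulated replicate 1 (0.0804) or 2 (0.0919), or tolerant replicate 2 (0.0732) or 3 (0.0988). The same-numbered differences were nonetheless close to each other, at 1.09, 1.12 and 1.06.

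Elavl1 and Khsrp passed in none of the 3 comparisons. Elavl1 read 9.81, 9.60 and 9.53 on the unstimulated arrays, 9.44, 9.46 and 9.57 at 6 h, and 9.68, 9.63 and 9.49 in tolerant cells. All 3 conditions overlapped, and the log2 difference of tolerant from unstimulated cells was -0.05 with a 95% interval of -0.38 to 0.29. Khsrp read 6.82, 7.05 and 7.02 on the unstimulated arrays, 6.85, 6.63 and 6.85 at 6 h, and 6.60, 6.69 and 6.85 in tolerant cells. It was lower in tolerant cells in all 3 same-numbered pairs, by 0.25 log2 on average, and did not pass (95% interval -0.60 to 0.09, adjusted p = 0.261). On the probe sets used, these intervals hold no change of 2-fold for either gene, and a missed threshold does not show that levels were equal. Of the 6 Elavl1 probe sets, 3 reached the level minimum and differed by -0.05 to 0.25 log2, and the 3 of Khsrp by -0.28 to -0.20. None of these passed. The Khsrp probe set at -0.28 had a 95% interval of -1.04 to 0.48, which does hold a 2-fold fall.

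**Figure D3:**
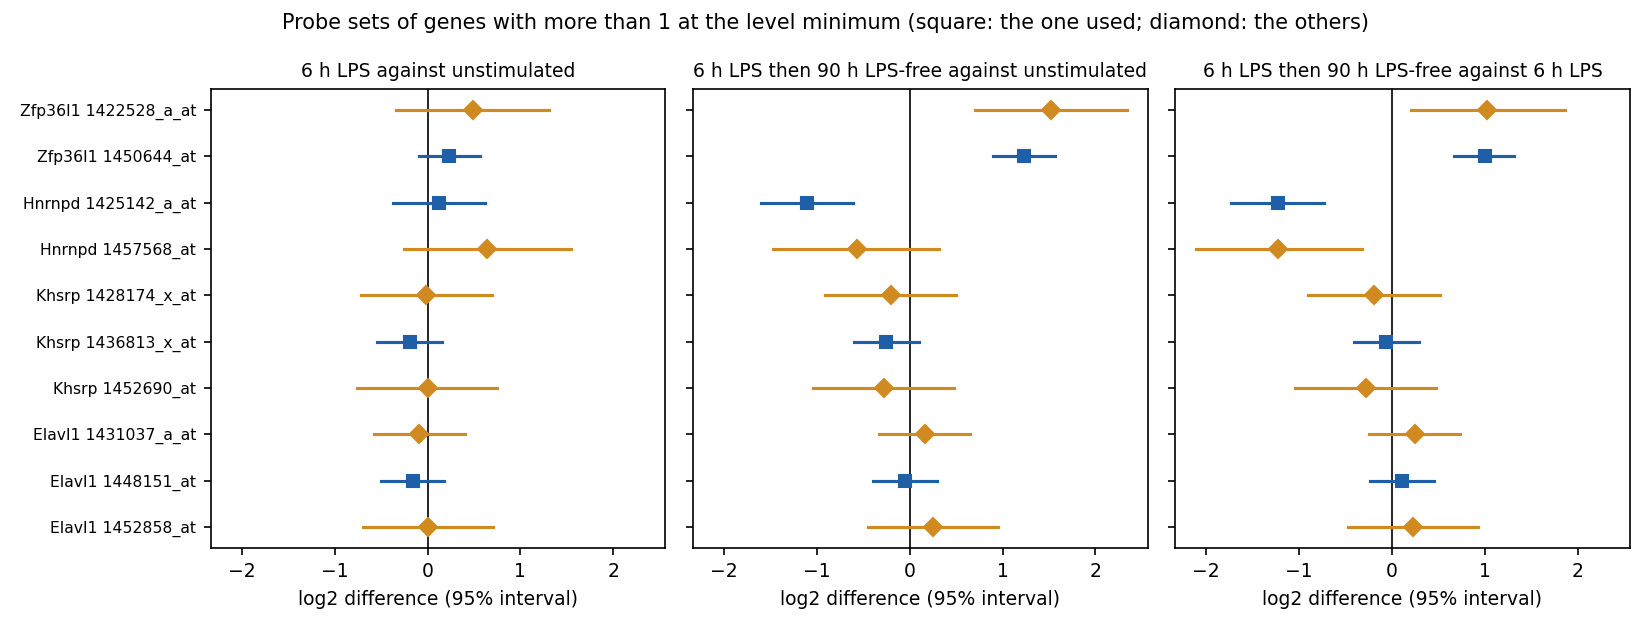
Log2 differences with 95% intervals for the 10 probe sets of Zfp36l1, Hnrnpd, Khsrp and Elavl1 that reached the level minimum, in the 3 comparisons (panels). Squares mark the probe set used for the gene and diamonds the others. Both Zfp36l1 probe sets lie above 0 in tolerant cells, and the second Hnrnpd probe set is lower by 0.57 log2 where the first is lower by 1.11.

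The third comparison set tolerant cells against 6 h of LPS, and shares its tolerant arrays with the one before. Here 3 of 8 genes were called higher (background 7.10%), the same TTP-family genes, and Hnrnpd lower (background 6.02%). Zc3h12a was called lower too, which its entry through the 6 h arrays fixed, and without it 1 of 7 was lower. The same 5 genes, Zc3h12a included, were called with the block (16.0% and 15.7% in the background) and from replicates 2 and 3, where 11.2% of tested genes were higher and 11.4% lower. At 6 h itself, replicates 2 and 3 called none of the 8 (0.0848% higher and 0% lower in the background).

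Zc3h12a fell from 5.02 ± 0.59 to 3.71 ± 0.13 (SD, n = 3), a fall of at least 2.03-fold, since all tolerant arrays lay below log2 4 (limma adjusted p = 0.0132, or 0.0551 without tolerant replicate 2). The tolerant readings overlapped the unstimulated ones, and both were below the level minimum, so no fold is given between them. Because the gene entered the test through its 6 h arrays alone, it had to differ from them, here and in the first comparison, and these values are a description.

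Zfp36l1 rose 2.0-fold from 6 h to the tolerant state (limma adjusted p = 0.00245), and kept its call when each array was left out. Its other probe set was 1.03 log2 higher without passing over 16655 probe sets (adjusted p = 0.115). Zfp36 rose 2.25-fold (adjusted p = 0.0237) in all 3 same-numbered pairs. That call was lost without 6 h LPS replicate 2 (adjusted p = 0.0793) or 3 (0.0747) and without tolerant replicate 1 (0.0757) or 2 (0.0541). Zfp36l2 rose 2.24-fold (adjusted p = 0.0439), nearest to the threshold, and the block put it at 0.000418. Leaving out an array removed its call in 7 of 9 cases, with adjusted p of up to 0.132 (without tolerant replicate 1). The exceptions were unstimulated replicate 1 and 6 h LPS replicate 1.

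Hnrnpd fell 2.35-fold from 6 h to the tolerant state (95% interval of the log2 difference -1.72 to -0.74, limma adjusted p = 0.00664). Its second probe set was lower by 1.22 log2 (adjusted p = 0.0907). Rc3h1 differed by -0.08 log2, and its pairs disagreed in sign, at -0.55, -0.59 and 0.89. Khsrp (-0.06) and Elavl1 (0.11) did not pass.

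Across the 9 arrays the tested genes with profiles most like Zfp36, by Pearson correlation, were Tnfrsf23 (0.988), Cks2 (0.981), Etv4 (0.979), Hgfac (0.977) and Zfas1 (0.976). All 5 read highest on the tolerant arrays and, within each condition, on replicate 1, so the correlation includes the replicate difference. For Zc3h12a they were Tlr2 (0.993), Neurl3 (0.925), Ift57 (0.925), Cfp (0.918) and Slco3a1 (0.903). Tlr2, a receptor for bacterial lipoproteins, read 3.57, 3.51 and 3.40 on the unstimulated arrays, 4.72, 5.28 and 6.07 at 6 h, and 3.52, 3.34 and 3.58 in tolerant cells. Like Zc3h12a it was highest on 6 h LPS replicate 3. Tlr2, Neurl3 and Cfp, again like Zc3h12a, reached log2 4 on the 6 h arrays alone. Their entry among the tested genes fixed that they were high at 6 h. These values describe 9 arrays of 3 conditions that share a normalization, and carry no test.

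Other regulators of the same mRNAs were counted from a list of 27 genes, of which 18 were tested. At 6 h none passed, and 5 were higher with the block (11.6% of all tested genes), Zc3h12c, Tia1, Hnrnpdl, Fmr1 and Pum2. Zc3h12c, a Regnase-family gene, was 2.79-fold higher at 6 h (adjusted p = 0.0625, or 0.0272 with the block) and then fell 2.28-fold from 6 h to the tolerant state (adjusted p = 0.00729). In tolerant against unstimulated cells 4 of 18 rose and none fell, beside 14.0% and 12.2% of all tested genes. They were Fxr1, an RNA-binding protein of the fragile X family (3.46-fold), Pum2, a Pumilio repressor (1.85-fold), Malt1, the paracaspase that cleaves Regnase-1 and Roquin (1.81-fold), and Hnrnpdl, a relative of AUF1 (1.51-fold, where Hnrnpd fell). Against 6 h, Fxr1 rose and Zc3h12c fell, 1 of 18 each way, beside 7.10% and 6.02%. The list's median log2 difference was 0.43 at 6 h, 0.27 in tolerant against unstimulated cells and -0.18 against 6 h, beside -0.11, -0.07 and 0.01 over all tested genes.

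The deadenylation list, CCR4-NOT with PAN2-PAN3, PARN and the TOB and BTG adaptors, had 17 of 18 genes tested. None passed at 6 h, and with the block 2 of 17 were higher and none lower (11.6% and 12.5% of all tested genes). In tolerant against unstimulated cells 2 of 17 rose and 1 fell, shares below those of all tested genes (14.0% and 12.2%). With the block it was 5 and 5, shares somewhat above the background (22.7% and 25.9%). Btg2, an antiproliferative gene whose product stimulates deadenylation, rose 4.39-fold, from 6.68 ± 0.47 to 8.81 ± 0.59 (SD, n = 3; limma adjusted p = 0.00298). Cnot6l, a catalytic deadenylase subunit, rose 2.88-fold (adjusted p = 0.00112), and Parn, the poly(A)-specific ribonuclease, fell 1.57-fold (adjusted p = 0.0443). From 6 h on, Btg2 rose 3.49-fold and Cnot6l 1.64-fold. That made 2 of 17 higher and 0 lower, beside 7.10% and 6.02% of all tested genes, and with the block 3 and 1 (16.0% and 15.7%). The median of the list was -0.05, 0.00 and -0.04 in the 3 comparisons.

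For the enzymes further down the pathway, shares over unstimulated cells were below the 14.0% and 12.2% of all tested genes. Of 11 tested genes of decapping and 5' to 3' decay, Dcp2, the decapping enzyme, rose 3.55-fold in tolerant over unstimulated cells. Dcps, the scavenger decapping enzyme, fell 1.75-fold, and none passed in the other comparisons. With the block, 1 of these 11 was higher and 2 lower at 6 h (11.6% and 12.5% of all tested genes). The counts were the same over unstimulated cells (22.7% and 25.9%), and against 6 h 1 was higher and none lower (16.0% and 15.7%). Of 14 tested genes of the exosome and SKI complex, Ttc37, a SKI subunit, rose 3.34-fold over unstimulated cells and 1.86-fold over 6 h. With the block this list had 3 higher and 3 lower over unstimulated cells (22.7% and 25.9% of all tested genes). From replicates 2 and 3 it had 3 higher and 4 lower (18.5% and 19.7%). At 6 h the block gave it 2 higher and 1 lower (11.6% and 12.5%), and against 6 h 3 higher and none lower (16.0% and 15.7%). The medians of both lists lay between -0.13 and 0.16.

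Kinases and phosphatases that act on TTP-family proteins were a list of 13 genes, 11 of them tested. The kinase p38, through MK2, phosphorylates TTP, which stabilises the protein and weakens its activity on mRNA, and the phosphatase DUSP1 inactivates p38. Dusp1 was 1.36-fold lower at 6 h without passing (adjusted p = 0.137), and rose to 9.63 ± 0.14 in tolerant cells from 8.62 ± 0.04 in unstimulated cells and 8.18 ± 0.10 at 6 h (SD, n = 3; limma adjusted p = 0.00178 and 0.000421). Mapk11, the p38-beta gene, rose 2.09-fold over unstimulated cells, and Mapk14, the p38-alpha gene, fell 1.54-fold. That made 2 of 11 higher and 1 lower, beside 14.0% and 12.2% of all tested genes. Against 6 h Dusp1 alone passed, beside 7.10% of all tested genes higher. With the block, 2 were higher and 3 lower over unstimulated cells (22.7% and 25.9%). It gave 0 higher and 1 lower at 6 h (11.6% and 12.5%), and 2 higher and 1 lower against 6 h (16.0% and 15.7%). The list's medians were -0.13, -0.27 and -0.03 log2, beside -0.11, -0.07 and 0.01 over all tested genes. Mapkapk2, the MK2 gene, named here after its values were seen, differed by -0.13, 0.00 and 0.13 log2 in the 3 comparisons and passed in none.

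Of 42 mRNAs listed as known targets of these proteins, 25 were tested and 17 lay below the level minimum, Tnf and Il6 among them (highest log2 readings 2.45 and 2.24). The 25 include Zfp36 and Zc3h12a, and Dusp1 of the previous list. At 6 h 5 rose and none fell (0.0636% and 0% of all tested genes), and with the block 11 were higher and 3 lower (11.6% and 12.5%). In tolerant against unstimulated cells 17 rose and 2 fell (14.0% and 12.2%), and against 6 h 12 rose and 8 fell (7.10% and 6.02%). Zc3h12a is among the 8 that fell and the 11 higher at 6 h with the block. Its entry through the 6 h arrays alone fixed both directions. Cxcl2 and Ccl2 lay below log2 4 on all unstimulated arrays and passed the filter through 6 h and tolerant arrays alone. That tied their direction over unstimulated cells to the filter. The list's medians were 0.25, 1.01 and 0.67 log2, and it was drawn up with earlier results of these data known, so its count is not independent support for a direction.

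The 4 chemokine targets differed in how far they had come back by 96 h. Cxcl5 read 6.16, 5.84 and 5.60 on the unstimulated arrays, 12.01, 12.01 and 11.82 at 6 h, and 5.10, 5.81 and 6.51 in tolerant cells, so that tolerant and unstimulated arrays overlapped. Cxcl1 read 7.36 to 7.62, then 11.33 to 11.71, then 9.42 to 9.80, and its tolerant arrays stood between the other conditions. Ccl2 read at most 3.66, then 7.41 to 7.80, then 6.30 to 6.90, and Cxcl2 at most 3.52, then 7.42 to 7.87, then 5.31 to 5.72. At 6 h Cxcl5 had risen 67.7-fold, Cxcl1 17.3-fold, Ccl2 at least 12.7-fold and Cxcl2 at least 11.9-fold. From 6 h to the tolerant state Cxcl5 fell 70.6-fold, Cxcl2 3.99-fold, Cxcl1 3.90-fold and Ccl2 2.04-fold (limma adjusted p = 2.79e-05, 0.000837, 0.000247 and 0.0139). The remaining call at 6 h was Nfkbiz, which has a Regnase-1-sensitive mRNA, named here after its value was seen (5.0-fold higher, adjusted p = 0.00621). Array values are levels, and no decay rate was measured.

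Among the other targets, Fos, an immediate-early gene with an AU-rich 3' end, rose 10.4-fold over unstimulated cells and 11.5-fold over 6 h. Tnfaip3, the A20 gene, rose 5.07-fold over unstimulated cells. Hmox1, the heme oxygenase 1 gene, fell 4.90-fold from unstimulated cells and 5.51-fold from 6 h, and Tfrc, the transferrin receptor gene and a Regnase-1 target, fell 2.6-fold and 6.82-fold.

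**Figure D4:**
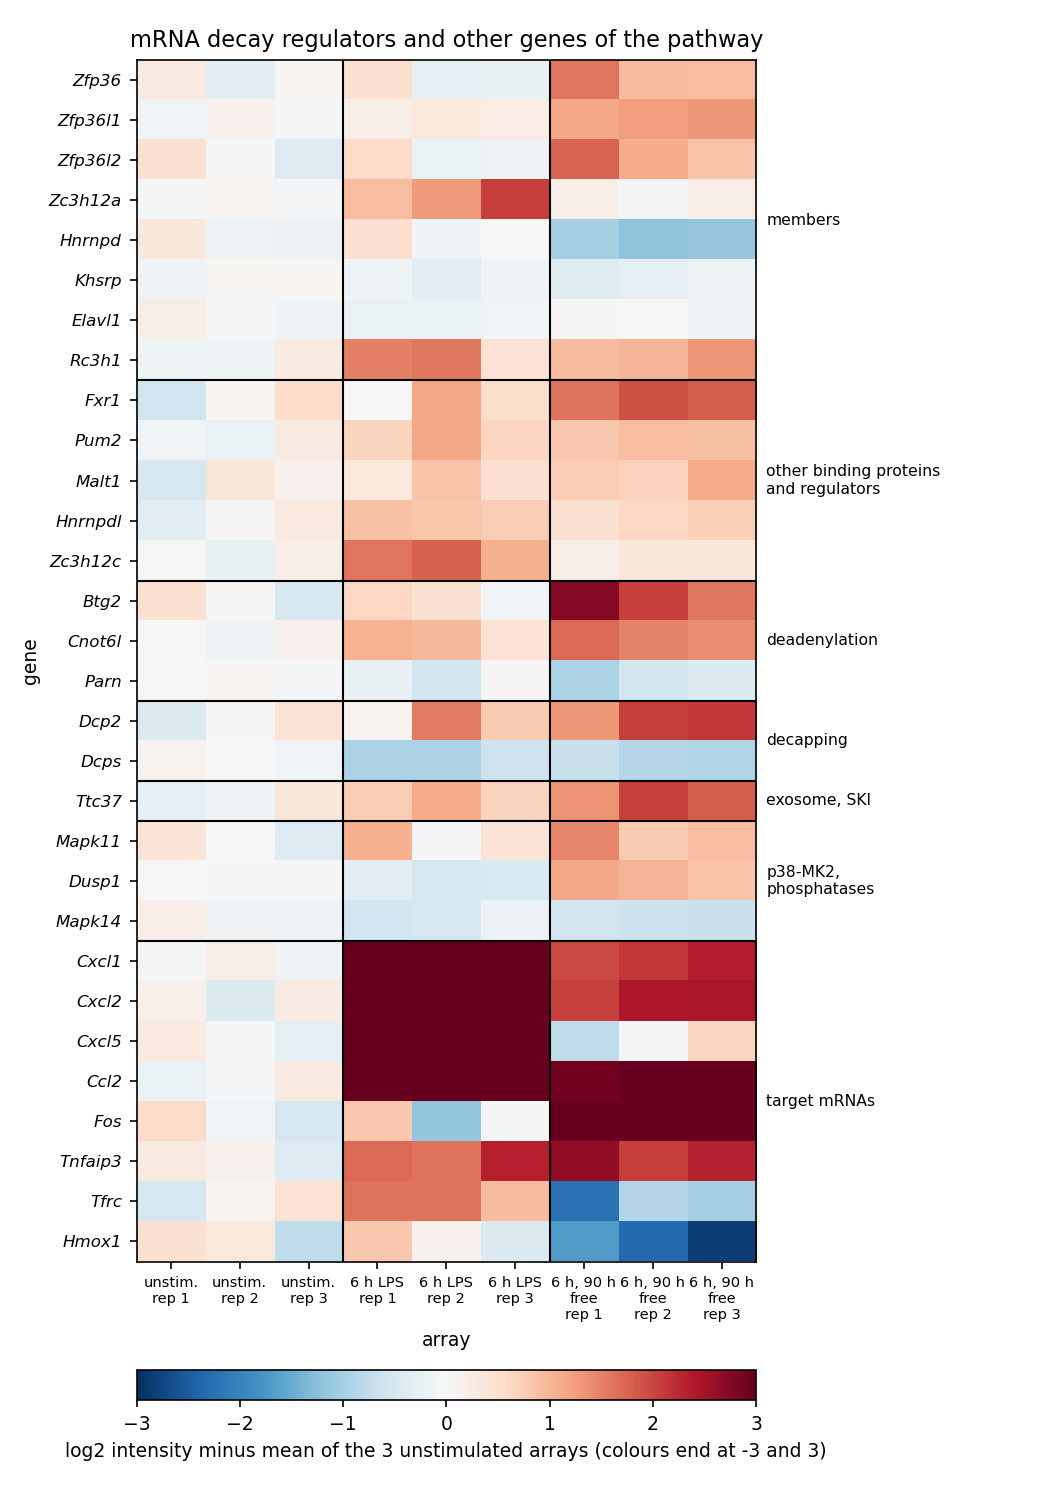
Log2 intensity of each array (columns) minus the mean of the 3 unstimulated arrays, for the 8 members and the genes of the 6 lists that the naming rule took among those past the threshold (rows), with colours that end at -3 and 3. The 4 chemokines are at the end of the scale at 6 h, while Zfp36, Zfp36l1, Zfp36l2, Btg2 and Dusp1 are highest on the tolerant arrays.

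**Figure D5:**
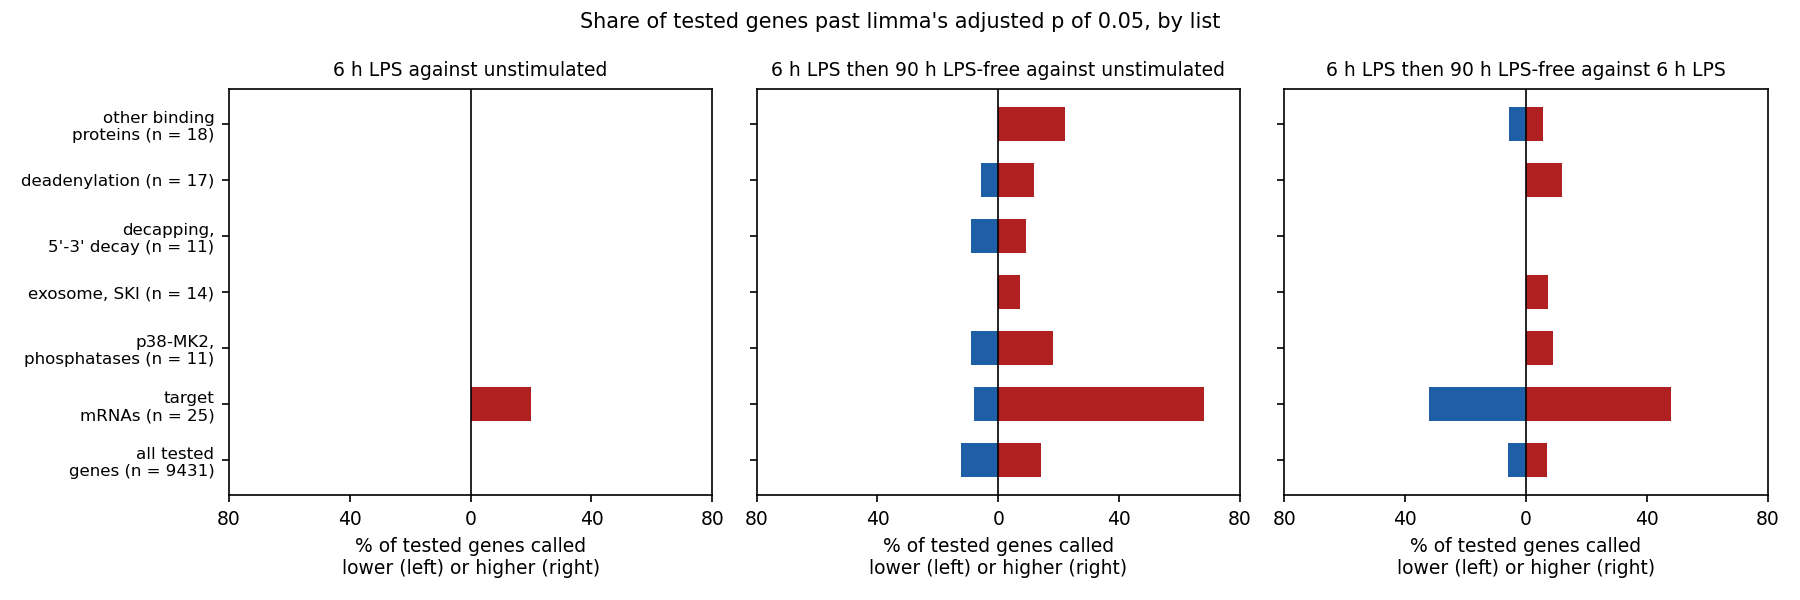
Percent of the tested genes of each list (rows, with n) that limma called lower (left of 0) or higher (right of 0) at an adjusted p of 0.05, in the 3 comparisons (panels), with all 9431 tested genes in the bottom row. At 6 h only the target list has calls among the 6 lists, 5 of 25.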

How the data were processed

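RNA was measured on 9 Affymetrix mouse arrays, 3 per condition. The deposited values are linear intensity per probe set, made by the authors with GCRMA per the submitters' processing notes without a version. This method corrects background by probe sequence, so low values crowd near a floor, and small differences there have no order. Array files give no depth, and the number of arrays limits precision.

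The log2 of each value was taken as it stood, with no pseudocount, in R 4.3.3. Probe sets with exactly 1 gene symbol were kept, 34945 of 45101. Tests covered the 51.8% of genes that reached log2 4 on 3 arrays or more. The model was limma 3.58.1 (lmFit with a mean per condition, 6 residual degrees of freedom, then eBayes). Tests were two-sided, with Benjamini-Hochberg adjustment over all 9431 genes and a threshold of 0.05. The model was also run on simulated data with independent noise on each array. Those data lack the replicate difference seen here, so the run does not show how the model handles it. Folds against a condition with all arrays under log2 4 are bounds, with log2 4 as its level.

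Same-numbered arrays deviated together (correlation of deviations across genes 0.157 to 0.844). Differently numbered arrays of replicates 2 and 3 did so as well (0.214 to 0.731), and pairs of replicate 1 with another number did not (-0.743 to -0.375). Deviations are from the mean of 3 arrays, so with replicate 1 apart those of replicates 2 and 3 tend the same way. The values for replicates 2 and 3 therefore cannot decide whether numbers mark pairs. The labels do not say what a number shares, so p-values measure the spread between these samples. Members and lists were chosen with earlier results of these data known. List genes were named if past the threshold, at most 4 a list and comparison by size, with the 4 chemokines, Tnf and Il6 in any case. The 5 genes most like Zfp36 and Zc3h12a are those of highest Pearson correlation, clone-like symbols left out. Alternatives covered filter, probe-set rule, normalization, floor, eBayes settings, separate fits, the replicate block, replicates 2 and 3 only, and each array left out.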

Additional observations from a re-analysis of the deposited data

How the results depend on the processing

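Leaving aside Zc3h12a, whose direction against 6 h was fixed by the filter, the 9 called differences of the members kept their direction in all 189 settings run and their call in 159, and the remaining 30 lost it. For members, with Zc3h12a counted again, the count of calls at 6 h was 0 and became 2 with the replicate block, and 0 to 2 with each array left out. In tolerant against unstimulated cells it was 5, became 3 without the filter on low values and 3 with the mean of probe sets, and ran from 2 to 5 with each array left out. Against 6 h it was 5 and became 3 without the filter, with the mean of probe sets and with a separate fit, and ran from 2 to 5 with arrays left out. With the mean of probe sets, which for Zfp36l2 takes in its other probe sets near the floor, its difference was 0.47 log2 over unstimulated cells and 0.44 over 6 h. Zc3h12a was not among the genes tested at that setting. Without the filter the adjustment runs over more genes. What moved these calls was not tested.

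Over all genes, 6 were called at 6 h, 37 without the filter, 14 with the mean of probe sets, 2267 with the replicate block and 5 to 696 with arrays left out (696 without 6 h LPS replicate 3). In tolerant against unstimulated cells 2470 became 4586 with the block and 1400 to 2908 with arrays left out. Against 6 h, 1238 became 2985 with the block, 2126 from replicates 2 and 3, and 677 to 1282 with arrays left out. The cause of these moves was not tested.

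Some differences that were never called changed sign. Zfp36 at 6 h was 0.02 log2 with median centring and -0.25 to 0.12 with arrays left out, Zfp36l2 -0.17 to 0.30 and Hnrnpd -0.06 to 0.29. Elavl1 in tolerant against unstimulated cells was 0.09 with the mean of probe sets and -0.11 to 0.04 with arrays left out. Against 6 h, Khsrp was 0.03 and Rc3h1 0.15 from replicates 2 and 3, and Rc3h1 ran from -0.45 to 0.13 with arrays left out. The block changed no member call other than Zc3h12a and Rc3h1 at 6 h. Signal near the array floor limits Zc3h12a, which reached log2 4 on 3 of 9 arrays.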
